A study of Mus musculus with 6 samples.

Results

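The sarcomere is the contractile unit of striated muscle, and 46 genes that build it were followed in skin of mice with and without the transcription factor gene Sox4. The genes are a hand-made list of thick filament, thin filament, Z disc and M band components, and they were found on the arrays by matching each probe's transcript accession to the listed symbols. Of the 46 genes, 45 had a named probe (65 probes in all; Smpx had none), and 42 passed the filter on dim probes and were tested among 22823 genes and unnamed transcripts. The other 3, Myl2, Tnnc1 and Myh3, were in neither group well above background on all 3 arrays and were not tested.

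Whole skin labelled as telogen, when hair follicles rest, was taken to ask what Sox4 contributes to skin in its basal state. One group was wild type (WT, n = 3) and the other had Sox4 knocked out conditionally in the skin (KO, n = 3). All 6 samples came from untreated males of mixed C57Bl6/129Sv descent. The WT mice were 20, 19 and 18 weeks old (replicates 1 to 3), and the KO mice were 17, 18 and 16 weeks old. The promoter that drives the deletion, and the cells it reaches, are not stated in the labels. No label states that the arrays are separate animals, but the 3 ages within each group differ, so they were treated as such; p-values measure the spread between these samples. Hair shaft genes, which follicles make while they grow hair, went against the telogen label in KO replicates 1 and 2: the hair keratin gene Krt86 read 19.1 and 9.34 times the array's 75th percentile there, against 0.352 in KO replicate 3 and 0.161 to 0.226 in WT.

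Each sarcomere holds myosin thick filaments that slide along actin thin filaments, with titin and nebulin as molecular rulers, the Z disc as the anchor of the thin filaments and the M band as the cross-link of the thick ones. Calcium binds the troponin complex on the thin filament and frees the myosin binding sites. Muscle fibres build most of these parts from alternative forms: fast-fibre, slow-fibre and developmental genes encode myosin heavy chains, light chains and troponins of different speed. In mouse skin a thin sheet of striated muscle, the panniculus carnosus, lies beneath the subcutaneous fat and is often taken with it.

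The 5 regions below are the 250 bases before the transcription start of a fast heavy chain gene (Myh4), the skeletal actin gene (Acta1), slow-fibre genes for a light chain (Myl3) and a heavy chain (Myh7), and the embryonic heavy chain gene (Myh3). They are shown because these genes stand for the fast, shared, slow and developmental groups described further on. The sequences are from RefSeq on build GRCm38.p6, written 5′ to 3′ on the strand of the gene: Myh4 at chr11:67237562-67237811 (plus strand), Acta1 at chr8:123894776-123895025 (minus), Myl3 at chr9:110763428-110763677 (plus), Myh7 at chr14:54994627-54994876 (minus, the first of its 2 windows) and Myh3 at chr11:67078050-67078299 (plus). Capitals mark matches on either strand to a MEF2 site, a CArG box (bound by serum response factor), CATTCC (the TEAD core), CAGCTG (an E-box) or TATAAA.
Myh4: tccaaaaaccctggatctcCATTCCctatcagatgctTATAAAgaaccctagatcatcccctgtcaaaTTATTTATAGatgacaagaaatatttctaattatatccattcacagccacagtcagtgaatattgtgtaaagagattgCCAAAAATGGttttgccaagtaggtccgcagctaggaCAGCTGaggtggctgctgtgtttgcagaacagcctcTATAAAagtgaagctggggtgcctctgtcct
Acta1: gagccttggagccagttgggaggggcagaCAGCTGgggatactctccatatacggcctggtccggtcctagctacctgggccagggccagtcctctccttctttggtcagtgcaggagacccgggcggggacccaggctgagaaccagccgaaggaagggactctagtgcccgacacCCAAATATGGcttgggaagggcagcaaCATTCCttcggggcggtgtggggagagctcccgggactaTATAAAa
Myl3: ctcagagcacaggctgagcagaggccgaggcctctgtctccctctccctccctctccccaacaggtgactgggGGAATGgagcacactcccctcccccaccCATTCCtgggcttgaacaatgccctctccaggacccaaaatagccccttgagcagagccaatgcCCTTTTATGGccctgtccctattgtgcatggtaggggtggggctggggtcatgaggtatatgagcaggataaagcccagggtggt
Myh7: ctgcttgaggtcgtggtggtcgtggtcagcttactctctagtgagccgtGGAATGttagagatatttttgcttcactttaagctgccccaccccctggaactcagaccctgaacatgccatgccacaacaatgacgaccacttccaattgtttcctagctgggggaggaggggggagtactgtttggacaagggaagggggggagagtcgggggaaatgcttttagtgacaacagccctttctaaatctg
Myh3: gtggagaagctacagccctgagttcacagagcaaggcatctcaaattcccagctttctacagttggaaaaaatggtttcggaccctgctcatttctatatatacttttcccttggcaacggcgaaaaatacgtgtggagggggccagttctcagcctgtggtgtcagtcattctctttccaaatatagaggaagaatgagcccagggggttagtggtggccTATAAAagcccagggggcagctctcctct

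The Myh4 region held 7 matches, with at least 1 to each of the 5 motifs; its MEF2 match, 182 to 173 bases before the start, overlaps a TATAAA. In Acta1 the CArG box match lay 73 to 64 bases before the RefSeq start, CATTCC 46 to 41 and TATAAA 7 to 2 bases before it. Myl3 held a CArG box match 85 to 76 bases before the start, Myh7 held CATTCC alone and Myh3 held TATAAA alone, 29 to 24 bases before its start. Across the 34 members with a region in the table (40 regions), 20% of regions held a MEF2 site, against 1.69% of all 32851 regions of that length. The MEF2 matches were in Klhl41, Myh1, Myh4, Myh8, Myom3, Myoz2, Ttn and Xirp2. A CArG box was in 15% of member regions (all regions 1.47%), CAGCTG in 32.5% (all regions 13%), CATTCC in 22.5% (all regions 12.6%) and TATAAA in 20% (all regions 12.4%). A match describes the letters in these windows and is not a measured binding site.

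Values are given as multiples of each array's own 75th percentile of the processed signal, in the order replicate 1, 2, 3; differences are log2 of KO minus WT from limma, with the standard error (SE) and the p adjusted over all 22823 genes by Benjamini-Hochberg. A multiple says nothing of one gene against another, since each probe has its own brightness. Between 52.1% and 66.4% of probes were well above background on an array, no spot was saturated, and the number of arrays limits the precision. Sox4 itself read 1.33, 1.57 and 1.68 in WT against 0.130, 0.136 and 0.121 in KO, a log2 difference of −3.56 (SE 0.13, adjusted p = 0.00135), so the scanner files go with their genotype labels. The columns of the deposited value table are headed the opposite way (each follows the array of the other genotype with the same number), and the directions below follow the scanner files. Of 7 epidermal markers, 6 had a named probe and all 6 passed the filter, with a summed level of 1827 to 2427 multiples.

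Most sarcomere genes read higher in KO than in WT skin, but none passed the test. Of 42 tested members, 37 had a positive log2 difference (35.9% of all genes did), and 29 had every KO array above every WT array (all genes 7.56%). Only Tpm3 had every KO array below every WT array (all genes 11.8%). The median log2 difference of the 42 was 1.62, or 3.08-fold, against −0.08 over all genes. At an adjusted p under 0.05 limma called 0 of 42 members (0.0219% of all genes were called in either direction, 0.00438% as higher in KO), with adjusted p from 0.274 to 0.816. At an unadjusted p under 0.05, 31 members were higher in KO (all genes 6.26%) and none lower. Without KO replicates 1 and 2, the samples with high hair shaft genes, the median was 1.49 and limma called 0 members (0 with an unadjusted p under 0.05); this leaves 1 KO array, which is assumed to vary like the WT arrays. In whole skin, more muscle in the sample and more RNA per muscle cell cannot be told apart.

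**Figure D1:**
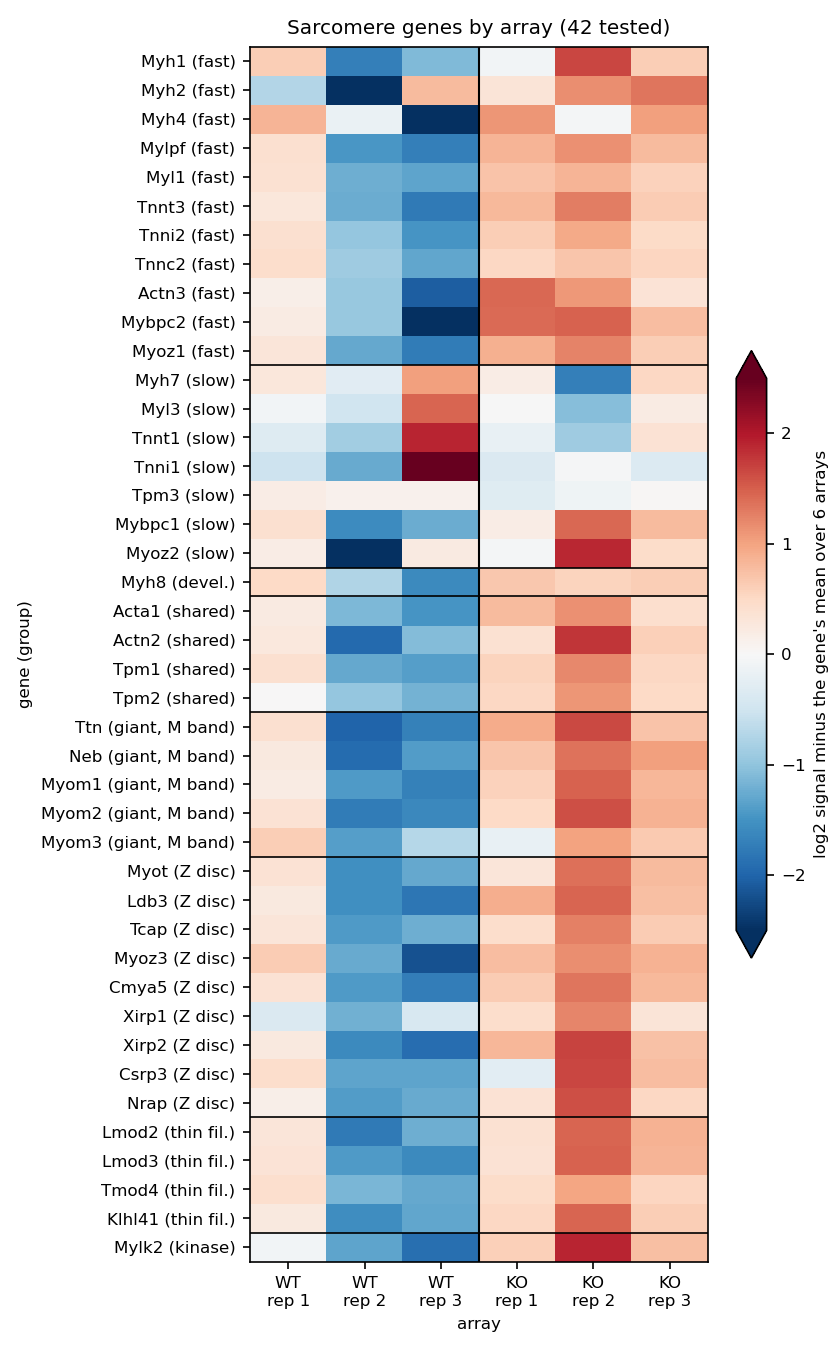
Heat map of the 42 tested sarcomere genes (vertical axis, by group) on the 6 arrays (horizontal axis); colour is the log2 signal minus the gene's mean over the 6 arrays, capped at the ends of the scale. WT replicates 2 and 3 are low for most genes, WT replicate 1 lies near the KO arrays, and the slow forms Myh7, Myl3, Tnnt1 and Tnni1 are highest in WT replicate 3.

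The heat map of members by array shows that the 3 WT skins were not alike. WT replicate 1 lay above both other WT arrays for 36 of 42 members (85.7%, against 32.6% of all genes), by a median of 1.70 on the log2 scale (all genes −0.04). Summed over members, the level was 4100 multiples in WT replicate 1 but 1571 and 1184 in replicates 2 and 3, and it was 4761, 6016 and 4663 in the KO arrays. KO replicate 2 was the highest array for 33 of 42 members (16.0% of all genes). The lowest array was WT replicate 3 for 21 members (9.98% of all genes) and WT replicate 2 for 17 (16.9% of all genes). The median SD of a member was 1.06 in WT and 0.49 in KO, where the median gene had 0.18 and 0.17.

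Arrays were run on 3 slides, and the size of the difference depended on the slide. Slide 1 held WT replicate 1 and KO replicate 3, and there 41 of 42 members were higher in KO, by a median of 0.33. On slide 2, with WT replicates 2 and 3 and KO replicate 1, 37 were higher and the median was 1.87. Slide 3 held KO replicate 2 alone and gives no difference of its own. At least 2-fold higher in KO were 1 member on slide 1 (Myh2) and 36 on slide 2. The comparison of group means over all arrays had 3.18% of all genes, and the share of all genes within a slide was not counted. With slide as a block the median was 1.22 and limma again called 0 members (27 with an unadjusted p under 0.05). Without WT replicate 1, limma called 19 members, all higher in KO, among 250 of 23167 genes (1.08%), and the median was 2.15. Whether the slide or the animal sets WT replicate 1 apart cannot be told apart with these arrays.

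**Figure D2:**
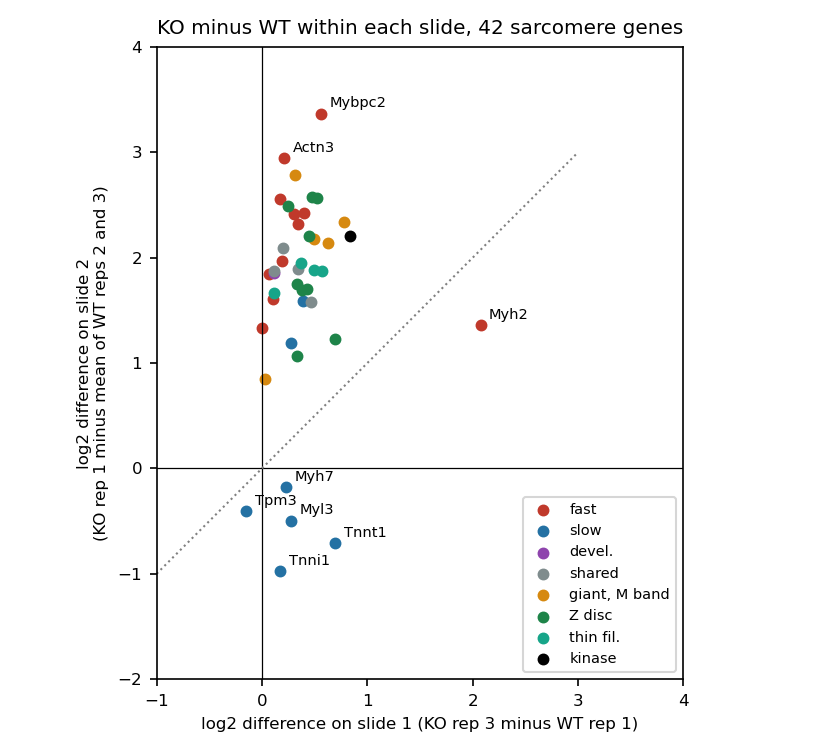
Each point is 1 of the 42 tested sarcomere genes, with the log2 difference KO minus WT on slide 1 (horizontal axis, 1 array each) and on slide 2 (vertical axis, KO replicate 1 minus the mean of WT replicates 2 and 3), coloured by group; the dotted line marks equal differences. Most genes lie near 0.33 on slide 1 and near 1.87 on slide 2, Myh2 alone is past 2-fold on slide 1, and 5 slow-fibre genes are below 0 on slide 2.

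Fast-fibre forms were higher in KO without exception in sign: all 11 had a positive difference (35.9% of all genes did), with a median of 1.82. For 8 of 11, every KO array was above every WT array (all genes 7.56%). Mylpf, the fast regulatory light chain, read 1.47, 0.409 and 0.345 in WT against 2.01, 2.47 and 1.94 in KO. The fast troponin T gene Tnnt3 read 175, 60.8 and 41.8 in WT against 251, 349.8 and 221 in KO. For both genes all KO arrays lay above all WT arrays, with WT replicate 1 nearest to them. The differences were 1.85 (SE 0.54, adjusted p = 0.308) for Mylpf and 1.82 (SE 0.52, adjusted p = 0.303) for Tnnt3.

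The other fast genes of the light chain and troponin group separated the groups in the same way. Myl1, an alkali light chain of fast fibres, read 265, 87.1 and 81.6 in WT against 330.4, 366 and 302 in KO. Tnni2, the inhibitory troponin, read 507, 195 and 137 in WT against 587, 740.2 and 531 in KO, and the calcium-binding troponin Tnnc2 read 622, 250.3 and 188 in WT against 661, 749 and 667 in KO. None of these 3 genes overlapped between groups, and the highest WT array was replicate 1 each time. Their differences were 1.43 (SE 0.45, adjusted p = 0.336), 1.36 (SE 0.47, adjusted p = 0.363) and 1.17 (SE 0.42, adjusted p = 0.381). A dimmer second probe for Myl1 had 2.01. Tnnc2 had the smallest difference among the fast forms, 2.24-fold.

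Myosin binding protein C of fast fibres, Mybpc2, braces the thick filament and had the largest difference of any member, 5.47-fold. Its readings were 22.1, 9.88 and 2.49 in WT against 51.3, 53.3 and 32.6 in KO, with WT replicate 3 far below the rest, and the difference was 2.45 (SE 0.75, adjusted p = 0.321). Actn3, the alpha-actinin of fast Z discs, read 20.2, 9.43 and 4.4 in WT against 49.7, 38.6 and 23.3 in KO, a difference of 1.91 (SE 0.57, adjusted p = 0.311). Myoz1, a calcineurin-binding Z disc protein of fast fibres, read 29.7, 9.92 and 7.18 in WT against 44.9, 57.3 and 36.8 in KO, a difference of 1.83 (SE 0.52, adjusted p = 0.303). All 3 genes had KO arrays entirely above WT arrays, although for Actn3 KO replicate 3 lay close to WT replicate 1.

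The fast heavy chains did not separate the groups. Myh4, the heavy chain of the fastest (IIB) fibres, read 399, 199.5 and 32.9 in WT against 477, 217 and 451 in KO; WT replicates 1 and 2 lay within or next to the KO range, and WT replicate 3 was far below. Myh1, the IIX chain, read 208, 41.8 and 63.2 in WT against 129, 431 and 208 in KO, so WT replicate 1 and KO replicate 3 were level. Myh2, the IIA chain of oxidative fast fibres, read 15.3, 3.46 and 44.4 in WT against 31.8, 56.8 and 64.3 in KO, with WT replicate 3 above KO replicate 1. The heavy chains therefore differed in which WT array was lowest: replicate 3 for Myh4 and replicate 2 for Myh1 and Myh2. Their differences were 1.38 (SE 0.90, adjusted p = 0.545) for Myh4, 1.47 (SE 0.68, adjusted p = 0.457) for Myh1 and 1.88 (SE 0.88, adjusted p = 0.460) for Myh2.

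Skeletal heavy chain genes are near-identical copies, and how far each probe reads its neighbours is uncertain. In the RefSeq table Myh3, Myh2, Myh1, Myh4 and Myh8 follow one another in this order on chromosome 11, between Sco1 and Myh13.

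Of 9 listed slow-fibre forms, 7 were tested, 2 had a positive difference (35.9% of all genes did) and none had every KO array above every WT array (all genes 7.56%). Their median was −0.48, and it turned with the slide. On slide 1, 6 of 7 slow forms were higher in KO, with a median of 0.27 against 0.21 for the fast forms. On slide 2, 2 of 7 were, with a median of −0.40 against 2.32 for the fast forms. Myh7, the slow heavy chain also used by heart, read 0.115, 0.0783 and 0.193 in WT against 0.108, 0.0291 and 0.136 in KO. KO replicate 2 was not well above background for it, WT replicate 3 was highest, and the groups overlapped. The difference was −0.68 (SE 0.63, adjusted p = 0.644); without KO replicate 2 it was 0.01.

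Myl3, the slow and ventricular light chain, read 0.214, 0.16 and 0.612 in WT against 0.222, 0.107 and 0.259 in KO. Tnnt1, slow troponin T, read 0.843, 0.583 and 3.96 in WT against 0.93, 0.568 and 1.36 in KO. Tnni1, slow troponin I, read 0.0986, 0.0584 and 0.798 in WT against 0.11, 0.137 and 0.111 in KO, and WT replicate 2 was not well above background for it. In all 3 genes WT replicate 3 was the highest array, and the other 2 WT arrays overlapped the KO arrays or lay below them. Differences were −0.59 (SE 0.56, adjusted p = 0.653), −0.48 (SE 0.73, adjusted p = 0.771) and −0.48 (SE 0.91, adjusted p = 0.816). Without WT replicate 3, Tnnt1 and Tnni1 had the opposite sign, 0.36 and 0.65, and Myl3 had −0.02, while the median of the 7 slow forms was 0.36.

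Tpm3, the slow-fibre tropomyosin that many other cells also make, read 79.5, 75.9 and 75.4 in WT against 57.2, 64.9 and 71.7 in KO. Every KO array was below every WT array, but the gap was small and the difference was −0.26 (SE 0.12, adjusted p = 0.471). A second, dimmer probe for Tpm3 had 0.20. Another read at or below 0.0241 on each array and was not used.

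Mybpc1 and Myoz2 were the slow-fibre genes that were higher in KO. Mybpc1, the slow myosin binding protein C, read 30.7, 7.8 and 9.87 in WT against 26.3, 63.0 and 40.3 in KO, with WT replicate 1 above KO replicate 1. Myoz2, the slow and cardiac counterpart of Myoz1, read 1.45, 0.199 and 1.49 in WT against 1.24, 4.71 and 1.76 in KO, where only KO replicates 2 and 3 exceeded all WT arrays. The differences were 1.61 (SE 0.57, adjusted p = 0.372) and 1.53 (SE 0.89, adjusted p = 0.522). The remaining slow genes, Myl2 (ventricular and slow regulatory light chain) and Tnnc1 (slow troponin C), were too dim to test. Myl2 read 0.0254, 0.0297 and 0.0637 in WT against 0.0623, 0.0233 and 0.0239 in KO and was well above background on WT replicate 3 and KO replicate 1. Tnnc1 read 0.0433, 0.0332 and 0.126 in WT against 0.046, 0.0116 and 0.12 in KO and was well above background on WT replicate 3 and KO replicates 1 and 3. Neither gene separated the groups.

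**Figure D3:**
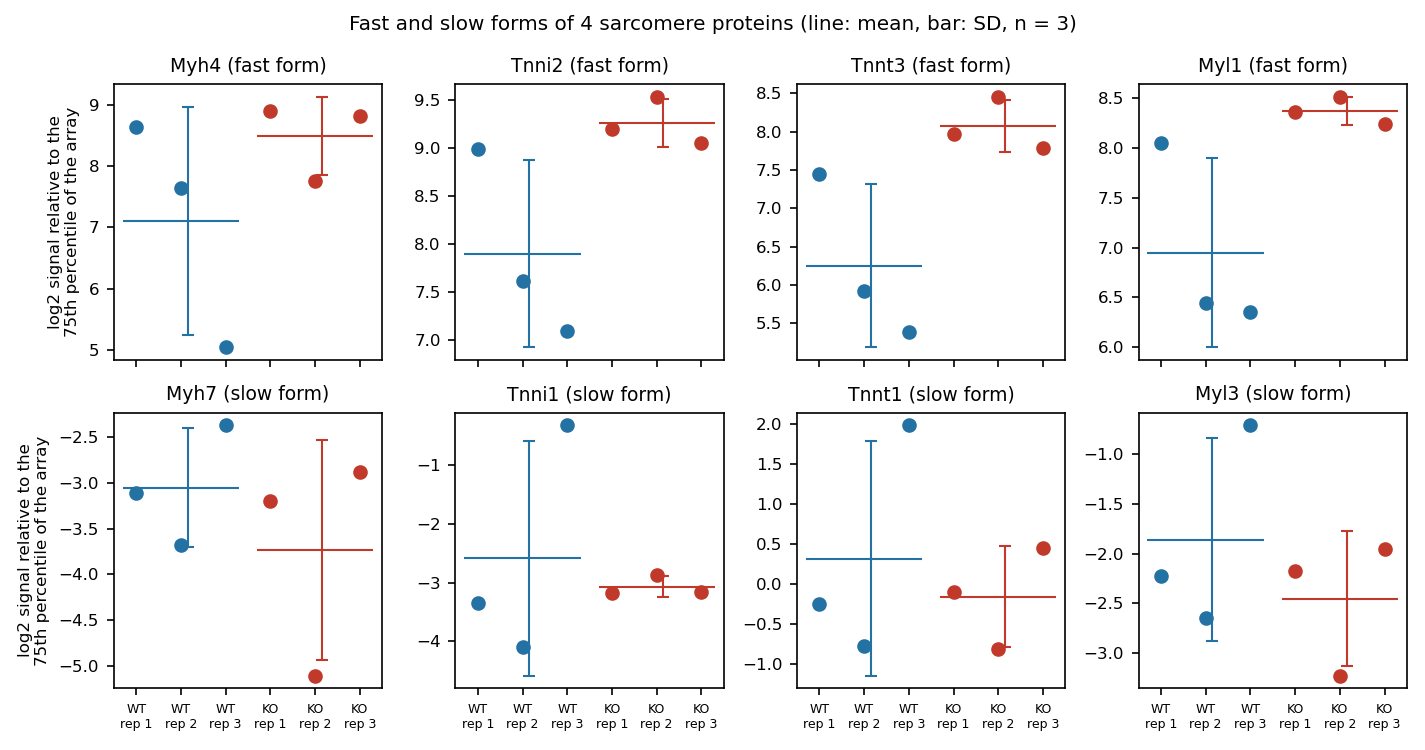
Log2 signal relative to the array's 75th percentile (vertical axis) on each array (horizontal axis) for the fast (upper panels) and slow (lower panels) forms of a heavy chain, troponin I, troponin T and an alkali light chain; lines are group means and bars the SD (n = 3). In the fast forms other than Myh4 all KO arrays are above all WT arrays, and in the slow forms WT replicate 3 is the highest array.

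To ask whether fast and slow forms differed unequally, the log2 ratio of a fast form to its counterpart was taken on each array and compared between groups. The counterpart was a slow form, except for Actn3, which was set against Actn2, a gene that both fibre types use. In 7 pairs with both genes tested, the difference of differences was positive: 2.06 (SE 1.42) for Myh4 against Myh7, 2.02 (SE 1.05) for Myl1 against Myl3, 2.29 (SE 1.41) for Tnnt3 against Tnnt1 and 1.85 (SE 1.54) for Tnni2 against Tnni1. Each of these 4 pairs had an exact two-sided permutation p of 0.2 (0.35 adjusted over the 7 pairs), where 0.1 is the smallest that 3 against 3 arrays allow. Mybpc2 against Mybpc1 had 0.85 (SE 0.80, exact permutation p = 0.4, adjusted 0.56). Actn3 against Actn2 and Myoz1 against Myoz2 had 0.07 (SE 0.78, exact permutation p = 0.9) and 0.30 (SE 1.08, exact permutation p = 0.8), both 0.9 adjusted. So no pair separated the groups.

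The pair values moved with WT replicate 3. Without it they were 0.69 for Myh4 against Myh7, 1.14 for Myl1 against Myl3, 1.03 for Tnnt3 against Tnnt1 and 0.31 for Tnni2 against Tnni1, with Mybpc2 against Mybpc1 at 0.21. On slide 1, which does not hold that array, the same pairs had −0.06, −0.08, −0.35, −0.11 and 0.17. Slide 2, which holds it, gave 2.74, 2.47, 3.02, 2.82 and 1.78.

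Of the 2 developmental heavy chains, 1 was tested. Myh8, the perinatal chain, read 606, 255 and 141 in WT against 686, 632 and 654 in KO on its brighter probe, with KO arrays above WT arrays and WT replicate 1 close to them. The difference was 1.23 (SE 0.49, adjusted p = 0.415), and a dimmer second probe had 2.04. Myh3, the embryonic chain that regenerating fibres also make, was too dim to test, yet one WT skin stood out. Its probes read 0.19, 0.0111 and 3.7 in WT against 0.045, 0.0144 and 0.0165 in KO and 0.12, 0.0106 and 2.53 in WT against 0.0334, 0.0184 and 0.0149 in KO. Both were well above background on WT replicates 1 and 3 and KO replicate 1 only, and WT replicate 3 was 19.4-fold and 21.0-fold above the next array.

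WT replicate 3 was the highest array for 4 of 7 slow forms, 3 of 3 measured cardiac markers and 2 of 7 junction and immature genes. It was so for 1 of 12 myogenic factors, 2 of 19 coupling genes, 0 of 17 energy genes and 0 of 11 fast forms (17.6% of all genes). By rank this was not particular to muscle. The same array was highest for 6 of 6 T cell markers and 3 of 7 white adipocyte markers. Its leads there were small: the narrowest was Cd3g (1.39 against 1.37 in WT replicate 2) and the widest Cd247 (0.0802 against 0.0581 in WT replicate 2). All 6 T cell markers were lower on every KO array than on every WT array, so a WT array had to be highest. WT replicate 3 was highest for 0 of 6 dermal fibroblast, 0 of 6 epidermal and 0 of 8 hair shaft markers. The genes named next were picked after their values were seen. Tnni1 lay 5.81-fold above the next array there. Myl4, the atrial and embryonic light chain, read 2.3, 2.23 and 12.8 in WT against 1.99, 2.79 and 2.23 in KO, 4.60-fold above the next array. Myog, a differentiation factor of the MyoD family, read 0.267, 0.0432 and 0.807 in WT against 0.205, 0.212 and 0.234 in KO, and Mymk, which fuses myoblasts, read 0.282, 0.215 and 0.663 in WT against 0.211, 0.115 and 0.33 in KO. In Myog the ratio of WT replicate 3 to the next array was 3.02 and in Mymk 2.01. The troponins Tnnt2 and Tnni3 had 2.13 and 2.17, but the receptor subunit Chrnd had 1.05. Other genes of early muscle were not highest there. Chrna1 read 0.436, 0.208 and 0.605 in WT against 0.788, 1.04 and 0.738 in KO. The differentiation factor Myod1 read 0.135, 0.0326 and 0.128 in WT against 0.102, 0.125 and 0.187 in KO. Myh8 was lowest in WT replicate 3 on its brighter probe only. Its dimmer probe read 0.609 in WT replicate 2 and 0.615 in WT replicate 3. Mstn, the myostatin gene, ran the other way: it read 3.18, 1.74 and 0.128 in WT against 6.29, 3.87 and 4.3 in KO, lowest in WT replicate 3. Myh4 and Mybpc2 were lowest in the same array.

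**Figure D4:**
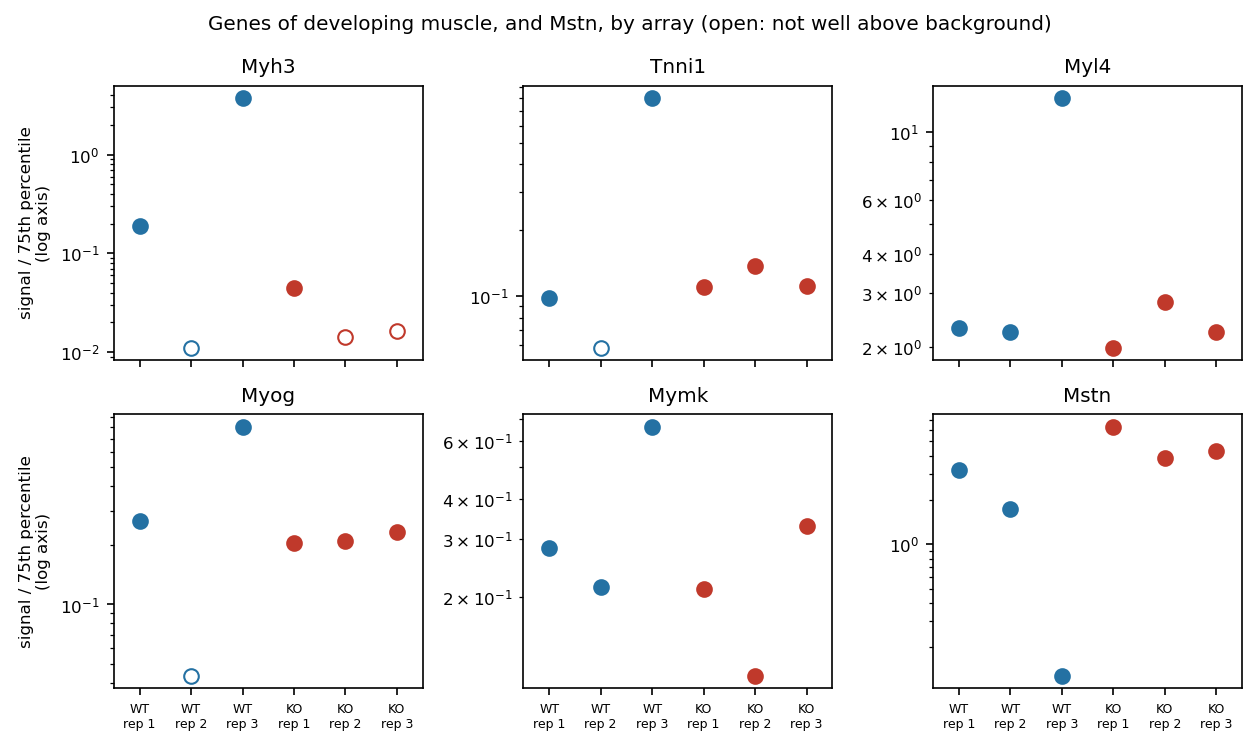
Signal as a multiple of the array's 75th percentile (vertical axes, log scale, a scale of its own per panel) on each array (horizontal axis) for Myh3, Tnni1, Myl4, Myog, Mymk and Mstn; blue points are WT, red points KO, and open points were not well above background. WT replicate 3 is the highest array in the first 5 panels (3.70 for Myh3) and the lowest for Mstn (0.128).

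The 4 genes shared by fast and slow fibres were higher on every KO array than on every WT array (all genes 7.56%). Acta1, skeletal alpha-actin, read 283, 110.2 and 87.4 in WT against 418, 535 and 324 in KO. Tpm2, beta-tropomyosin, read 42.4, 21.5 and 18.5 in WT against 59.8, 90.2 and 58.7 in KO. For both, WT replicate 1 lay between the other WT arrays and the KO arrays. The differences were 1.58 (SE 0.45, adjusted p = 0.303) and 1.41 (SE 0.34, adjusted p = 0.274), the latter with the smallest adjusted p of any member, which it shared with Xirp1 and Mylk2.

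Actn2, the alpha-actinin of all striated Z discs, read 10.8, 2.33 and 4.26 in WT against 11.7, 31.0 and 13.7 in KO, a difference of 1.84 (SE 0.62, adjusted p = 0.356); KO replicate 1 was just above WT replicate 1. Tpm1, alpha-tropomyosin, read 301, 94.4 and 88.3 in WT against 335, 528 and 326 in KO on its brightest probe, a difference of 1.51 (SE 0.49, adjusted p = 0.346). Tpm1 transcripts are spliced in a tissue-specific way, and its 5 probes disagreed. A probe for the same transcript accession (NM_001164248) had 1.43, while probes for 3 other transcripts (NM_001164249, NM_001164251 and NM_001164255) had −0.15, −0.20 and −0.09.

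Giant and M band genes had a median difference of 1.99 over 5 genes. For 4 of 5, every KO array was above every WT array (all genes 7.56%). Titin (Ttn), the elastic ruler from Z disc to M band, read 49.0, 9.23 and 11.55 in WT against 71.1, 117 and 60.7 in KO. Nebulin (Neb), which spans the thin filament, read 24.3, 5.39 and 7.81 in WT against 32.8, 52.1 and 41.8 in KO. Both were low in WT replicates 2 and 3 and intermediate in WT replicate 1. The differences were 2.20 (SE 0.64, adjusted p = 0.309) for Ttn and 2.04 (SE 0.54, adjusted p = 0.286) for Neb, and the other 3 Ttn probes had 2.28, 2.12 and 2.09.

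Among the myomesins, which link thick filaments at the M band, Myom1 read 7.74, 2.49 and 2.08 in WT against 10.02, 18.5 and 11.9 in KO and differed by 1.93 (SE 0.52, adjusted p = 0.290). Myom2, the form of fast fibres, read 48.7, 11.3 and 12.4 in WT against 53.4, 115 and 68.5 in KO and differed by 1.99 (SE 0.60, adjusted p = 0.320). Both had KO arrays above WT arrays, with Myom2 in WT replicate 1 just below KO replicate 1. Myom3 read 16.5, 4.14 and 6.59 in WT against 9.41, 21.5 and 16.8 in KO, so WT replicate 1 lay inside the KO range, and its difference, 0.97 (SE 0.55, adjusted p = 0.513), was the smallest of the positive ones.

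Of 10 Z disc and signalling partners 9 were tested (Smpx had no named probe). All 9 were higher in KO in mean (all genes 35.9%) and 7 had no overlap (all genes 7.56%), with a median of 1.67. Xirp1 and Xirp2 bind actin at sites of remodelling. Xirp1 read 0.494, 0.278 and 0.481 in WT against 0.859, 1.48 and 0.797 in KO with WT replicates 1 and 3 level and below the KO arrays. Xirp2 read 2.73, 0.759 and 0.614 in WT against 4.06, 7.39 and 3.79 in KO. Their differences were 1.31 (SE 0.32, adjusted p = 0.274) and 2.16 (SE 0.59, adjusted p = 0.294).

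Ldb3, a PDZ and LIM protein of the Z disc, read 7.86, 2.3 and 1.91 in WT against 12.4, 18.2 and 11.3 in KO, a difference of 2.07 (SE 0.54, adjusted p = 0.279). Cmya5, a large partner of alpha-actinin, read 25.1, 7.36 and 5.85 in WT against 30.3, 49.4 and 34.1 in KO, a difference of 1.85 (SE 0.55, adjusted p = 0.310), with 1.20 on a dimmer probe. The KO arrays of both genes were above all WT arrays. The other 5 genes of the group (Myot, Tcap, Myoz3, Csrp3 and Nrap) had differences from 1.46 to 1.87; Csrp3 and Myot overlapped between groups. The probes of Myoz3 disagreed, with 1.87 on the brighter and 0.06 on the dimmer one.

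Genes that set the length and turnover of thin filaments (4 of 4 without overlap, all genes 7.56%, median 1.76) had similar values. Lmod2 and Lmod3, leiomodins that start actin filaments, read 0.478, 0.114 and 0.166 in WT against 0.503, 1.07 and 0.711 in KO for Lmod2 and 13.6, 3.99 and 3.53 in WT against 13.8, 29.5 and 19.1 in KO for Lmod3. Tmod4, which caps the pointed end, read 12.9, 4.36 and 3.99 in WT against 13.2, 19.2 and 14.0 in KO, and Klhl41, a kelch protein that stabilises nebulin, read 2.03, 0.583 and 0.697 in WT against 2.46, 4.67 and 2.63 in KO. Every KO array lay above every WT array in these 4 genes, with KO replicate 1 nearest to WT replicate 1 in Lmod2, Lmod3 and Tmod4. The differences were 1.80 (SE 0.55, adjusted p = 0.325), 1.78 (SE 0.56, adjusted p = 0.332), 1.33 (SE 0.46, adjusted p = 0.364) and 1.73 (SE 0.51, adjusted p = 0.309).

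Mylk2, the skeletal kinase that phosphorylates the regulatory light chain, read 7.5, 3.16 and 2.14 in WT against 12.0, 29.6 and 13.4 in KO. Each KO array exceeded each WT array, KO replicate 2 by the most. The difference was 2.18 (SE 0.54, adjusted p = 0.274), 4.54-fold. With age as a covariate it was 3.66 (limma adjusted p = 0.0439), which made Mylk2 the only member called under that alternative. The same alternative called 141 of 22823 genes, against 5 without the covariate. Age and genotype overlap only at 18 weeks.

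**Figure D5:**
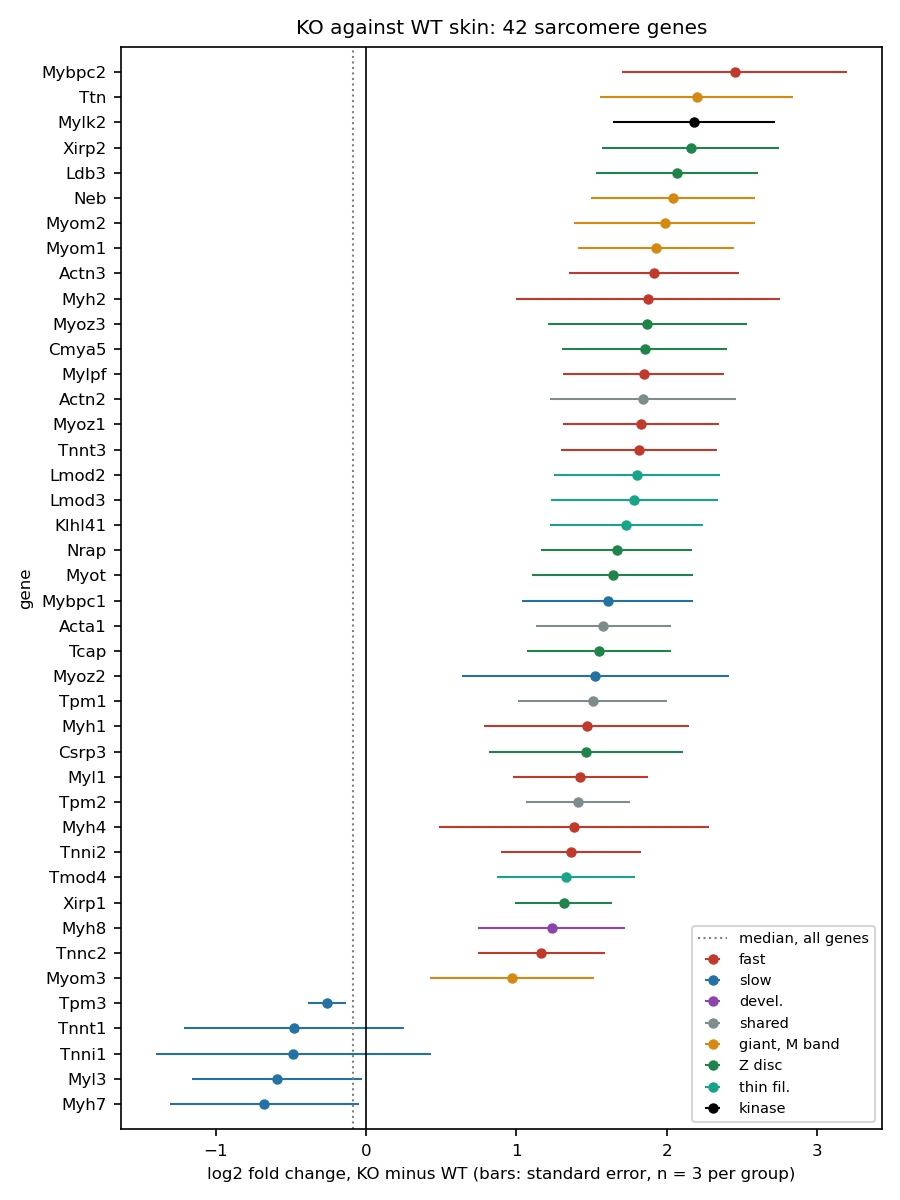
Log2 difference KO minus WT (horizontal axis) of the 42 tested sarcomere genes (vertical axis, ordered by size); points are estimates, bars the standard error (n = 3 per group), colours the groups, and the dotted line the median of all genes (−0.08). The values run from −0.68 (Myh7) to 2.45 (Mybpc2), and the 5 genes below 0 are all slow-fibre forms.

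The 19 members called without WT replicate 1 came from most groups: Mylpf, Myl1, Tnnt3, Tnni2, Tnnc2 and Myoz1 among the fast forms (6 of 11); Acta1, Tpm1 and Tpm2; Ttn, Neb, Myom1 and Myom2; Ldb3, Tcap, Myoz3, Cmya5 and Xirp2; and Tmod4. Their limma adjusted p ran from 0.0293 to 0.0489, in a setting where 250 of 23167 genes (1.08%) were called. None of the 7 slow forms was called (smallest adjusted p = 0.0788), nor were Myh8 and Mylk2. Whether fast and slow forms differ in this respect was not tested. Leaving out any other single array left 0 members called.

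Other muscle genes, from lists that hold no member, also read higher in KO, and none was called by limma. Over all genes, 35.9% had a positive difference and 7.56% had every KO array above every WT array. For excitation-contraction coupling, 18 of 19 genes had a positive difference (median 1.67, 12 without overlap). The chloride channel Clcn1 read 0.105, 0.0513 and 0.0354 in WT against 0.181, 0.274 and 0.181 in KO, a difference of 1.85 (SE 0.41, adjusted p = 0.274). Clcn1 and Jph1 were well above background on 1 of 3 WT arrays and passed the filter through KO alone; both are among the 12. The calcium pump Atp2a1 differed by 2.17 (SE 0.53, adjusted p = 0.274) and the calcium channel Cacna1s by 1.77 (SE 0.47, adjusted p = 0.281). In muscle energy supply all 17 were positive (median 1.91, 16 without overlap): the phosphorylase kinase subunits Phka1 and Phkg1 differed by 1.66 (SE 0.35, adjusted p = 0.274) and 2.36 (SE 0.52, adjusted p = 0.274), and the cytochrome oxidase subunit Cox8b by 1.67 (SE 0.37, adjusted p = 0.274).

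In the costamere, which ties sarcomeres to the membrane, all 14 genes were positive (all genes 35.9%). Their median was 1.46, and 13 were without overlap (all genes 7.56%). Dysf, the membrane repair protein dysferlin, read 2.68, 2.51 and 2.52 in WT against 5.06, 6.63 and 4.95 in KO, and here WT replicate 1 was level with the other WT arrays; the difference was 1.10 (SE 0.15, adjusted p = 0.167). Sgca, a sarcoglycan, and Ank1 differed by 1.66 (SE 0.41, adjusted p = 0.274) and 1.71 (SE 0.43, adjusted p = 0.278). Myogenic factors were mixed: of 12 measured, 9 were positive, 5 without overlap above (all genes 7.56%) and 2 below (all genes 11.8%), with a median of 0.70. Myf6, the factor of mature fibres, differed by 1.97 (SE 0.47, adjusted p = 0.274), Mef2c by 1.21 (SE 0.39, adjusted p = 0.346) and Mef2d by 0.70 (SE 0.21, adjusted p = 0.310). The 2 without overlap below were Mef2a at −0.48 (SE 0.17) and Eya1 at −0.36 (SE 0.13). Junction and immature genes had a median of 0.16 over 7, with 5 positive, 2 without overlap (all genes 7.56%) and Mymk lowest at −0.78. The acetylcholine receptor subunits were the highest of them: Chrnb1 at 1.28 (SE 0.41, adjusted p = 0.341), Chrna1 at 1.15 (SE 0.39, adjusted p = 0.358) and Chrnd at 1.39 (SE 0.89, adjusted p = 0.544). Chrnb1 and Chrnd were well above background on 2 of 3 WT arrays and passed the filter through KO, as did the myogenic factors Myod1 and Myog.

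Markers of other cells gave the setting in which these values lie, and their part in the result was not tested. Over all genes, 35.9% had a positive difference. Smooth muscle markers had a median of −0.09 over 10 genes, with 3 positive, and summed levels of 69.1 to 109.2 in WT and 79.8 to 99.3 in KO. Of 9 cardiac markers, 3 passed the filter (Tnnt2, Myl4 and Tnni3, all lower in KO, median −0.46; summed 3.20 to 15.1 in WT, the highest in replicate 3, and 2.93 to 3.82 in KO). The heart genes Myl7, Ryr2 and Mybpc3 were not well above background on any array. Nppa, Nppb and a Myh6 probe were well above background on 2 WT and 2 KO arrays each and so did not pass the filter. Another Myh6 probe was well above background on 0 arrays. White adipocyte markers had 2 of 7 positive (median −0.22) and their lowest sum in WT replicate 1, 137.9, against 309.9 and 371.4 in the other WT arrays and 285.7 to 440.4 in KO. Brown adipocyte markers had 2 of 4 positive (median 0.13), with sums of 65.0 to 75.7 in WT and 47.1 to 61.2 in KO.

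Dermal fibroblast markers had 1 of 6 positive (median −0.17; sums 2323 to 2602 in WT, 1979 to 2339 in KO), and epidermal markers 0 of 6 (median −0.18; sums 2198 and 2427 in WT replicates 3 and 2, 1899 in WT replicate 1, and 1827 to 1901 in KO). Hair shaft genes had 8 of 8 positive (all genes 35.9%, median 3.29). Among the 8, Padi3 was well above background on 1 of 3 WT arrays and passed the filter through KO alone. The hair shaft sum was high in KO replicates 1 and 2 only (67.0 and 46.7) and 4.94 in KO replicate 3, against 3.88 to 6.51 in WT. T cell markers were lower in all KO arrays for 6 of 6 (all genes 11.8%; median −1.13), 1 of 6 was called as lower (all genes 0.0175%) and Cd247 passed the filter through WT alone, with sums of 7.65 to 9.96 in WT and 3.93 to 4.23 in KO.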

How the data were processed

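Messenger RNA of 6 skins was measured on 1-colour Agilent arrays. The authors deposited scanner output with an intensity per spot, from Feature Extraction 11.5.1.1, background-subtracted but not normalized between arrays, per the file headers. Other deposited columns, coded 0 or 1, flag outlier, saturated and well-above-background spots, per the file headers. A value table on a log2 scale was also deposited by the authors; how it was made is not given in the sources, and the submitters' processing notes name limma only. Centred per probe over 30082 probes, each of its columns correlated with the array of the opposite genotype and same number (r 0.887 to 0.931) and negatively with its own heading (−0.583 to −0.192), so it served as an alternative by matched array. Column medians were 6.80.

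Spots of a probe were averaged as log2 processed signal minus the array's 75th percentile (380 to 605 units). Accessions were matched to RefSeq (GRCm38.p6), naming 27497 probes; 28153 stayed unnamed, and 31 of 55681 probes had no usable spot. A probe was kept when every array of 1 group or both had it well above background (30082 probes), and a gene took its brightest kept probe (22823 genes). The test was limma (version 3.58.1, R version 4.3.3; lmFit and eBayes, two-sided, Benjamini-Hochberg, threshold 0.05, no covariate). On simulated data for this comparison (22823 genes, 5 runs) it recovered 43.4% of changes of 1 log2 unit and 92.2% of 3, with 4.42% false calls. These rates are over all genes, where the median SD was 0.18 in WT and 0.17 in KO. The members had median SDs of 1.06 and 0.49, and recovery at their spread was not tested.

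The members and all gene lists were chosen with earlier results of these data known. Values on every array are given for the fast, slow, developmental, shared, giant, M band and kinase genes, and for the 4 genes of smallest unadjusted p in the other member groups; 3 genes are named from each further muscle list by the same rule, and other genes named were chosen after their values were seen. Alternatives covered normalization, background, filter, probe choice, slide, age, replicate block, the value table and leaving out arrays.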

Additional observations from a re-analysis of the deposited data

How the results depend on the processing

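Under quantile normalization, median scaling, normexp background, no filter, the mean of a gene's probes, slide as a block and the value table, 37 members had a positive difference and 0 were called; the filter on all 6 arrays left 40 members and 0 called. The count of called genes (5) was 11 with quantile normalization, 15 with median scaling, 8 with normexp (on median spot signals, a choice made after seeing the files), 2 of 37000 without the filter, 9 with the filter on all 6 arrays, 1 with the slide block, 8 with the value table, 141 with age as a covariate and 130 without KO replicates 1 and 2 (added after seeing the data; 1 KO array is left, with the spread taken from WT). It ran from 2 to 250 when single arrays were left out; called members ran from 0 to 19 and their median from 1.29 to 2.15. Age as a covariate gave 1 called member and a median of 2.79; slide 1 alone gave a median of 0.33. The same replicate number does not pair the samples (correlation of deviations −0.13, −0.04 and 0.08 for numbers 1, 2 and 3); the replicate block called 0 genes in limma (2217 with an unadjusted p under 0.05) and 0 members (28 with an unadjusted p under 0.05).

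Signs turned as follows, and the cause was not tested. Slide 1 alone gave 0.23 for Myh7, 0.27 for Myl3, 0.70 for Tnnt1 and 0.17 for Tnni1, and pair values of −0.055 (Myh4 and Myh7), −0.085 (Myl1 and Myl3), −0.35 (Tnnt3 and Tnnt1), −0.11 (Tnni2 and Tnni1) and −0.13 (Actn3 and Actn2). Without WT replicate 3, Tnnt1 had 0.36, Tnni1 0.65, the Actn3 and Actn2 pair −0.40 and the Myoz1 and Myoz2 pair −0.61. Without KO replicate 1 these 2 pairs had −0.45 and −0.09. Without KO replicate 2, Myh7 had 0.011. Over all single arrays left out, Myh7 ran from −1.10 to 0.011, Tnnt1 from −1.03 to 0.36, Tnni1 from −1.24 to 0.65, the Actn3 and Actn2 pair from −0.45 to 0.58 and the Myoz1 and Myoz2 pair from −0.61 to 1.08. Without KO replicates 1 and 2, Myh7 had 0.17, Tnnt1 0.13 and the Actn3 and Actn2 pair −0.22.

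Myl2 and Tnnc1 lay near background, where values are least precise, and Myh3 did so on all arrays but WT replicates 1 and 3 and KO replicate 1; without the filter the differences of Myl2, Tnnc1 and Myh3 were −0.16, −0.50 and −3.17 (limma adjusted p = 0.917, 0.849 and 0.798).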
